A study of Mus musculus with 12 samples.

Results

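The 10 genes H6pd, Spsb1, Slc25a33, Gpr157, Slc2a5, Car6, Rere, Clstn1, Phf13 and Camta1 lie near Mir34a on mouse chromosome 4. They were chosen by position around the microRNA gene, with Eno1 set aside. Values of these 12 libraries were already known when the list was drawn up, so what follows describes these genes, and the tests quoted do not support the choice of them. All 10 were found among the 21792 genes of the expression table, and all 10 passed the filter on low values (a mean of at least 1).

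RNA was sequenced from colon tumours of FvB mice that had received azoxymethane, a carcinogen that induces colon tumours, at 10 mg/kg intraperitoneally once a week for 6 weeks, and the experiment ended 16 weeks after the first injection. The 12 libraries form 4 genotypes with 3 libraries each: wt, miR-34a deficient, p53 deficient and miR-34a/p53 deficient (double deficient). Per the labels the deficiencies are of intestinal epithelial cells (IEC), and as that reads, the other cells of a tumour keep the genes. Neither the recombinase, nor the promoter that drives it, nor the age of the mice is given in the labels. The labels also leave unsaid which libraries come from different animals, and the tests therefore measure the spread between libraries, which may be technical. In bulk tissue, fewer cells of a type and less RNA per cell cannot be told apart.

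miR-34a is a microRNA whose gene is a direct transcriptional target of p53, and it lowers the level of messenger RNAs that pair with its seed. Genes that lie close to an edited allele are mostly inherited together with it. The mature sequence of RefSeq (GRCm38.p6, chr4:150068473-150068494, plus strand) is shown because 2 of the 10 neighbours carry matches to its seed, bases 2 to 8, which is in capitals.
mmu-miR-34a-5p: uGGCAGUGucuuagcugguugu

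The 7-base match CACTGCC, searched on the transcript strand, was present in an annotated 3′ untranslated region (UTR) of H6pd and of Camta1. None of the other 8 genes had it, and 16.7% of the 16092 genes of the table with such a region did. H6pd held 3 matches in a UTR of 2083 bases, against a median longest UTR of 1057 bases over genes. The 8-base form, followed by A, occurred in H6pd and in Camta1. The sites are given with 10 flanking bases on each side and the match in capitals, from GENCODE M21 transcripts (GRCm38, minus strand).
H6pd, chr4:149980958-149980964, 8-base match: cagacacagaCACTGCCacgtcagaag
H6pd, chr4:149980053-149980059: ttttcttgctCACTGCCtctcaggcgt
H6pd, chr4:149979901-149979907: aacggtgagtCACTGCCcagcctgagc
Camta1, chr4:151060602-151060608, 8-base match: tacttcctttCACTGCCaacctcaaat

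The deposited values are whole numbers with near-equal upper quartiles, read here as normalized expression scores, so the read depth behind them is unknown. Trp53, the gene of p53, was at 4126 to 4512 in wt and 3466 to 5120 in miR-34a deficient tumours, and at 401 to 598 in p53 deficient and 504 to 924 in double deficient tumours. Mir34a itself was not read here, so its deletion is taken from the labels. None of 10 epithelial markers was at 0 throughout a genotype, and their sums are given with the other markers at the end. Differences below are log2 differences of group means ± SE (n = 3 libraries per group), on the scale of log2(value + 1). They come from limma fitted to 21322 genes, with Benjamini-Hochberg adjusted p-values over all of them, and a gene passes at an adjusted p under 0.05.

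Of the 10 genes, none passed between miR-34a deficient and wt tumours, where 0.0375% of all genes did, and 3 had an unadjusted p under 0.05, against 6.09% of all genes. Between double deficient and p53 deficient tumours, which share no library with the first comparison, 1 passed, where 0.605% of all genes did and 0.38% did so as lower, and 2 had an unadjusted p under 0.05, against 15.1%. The median size of the difference, without its sign, was 0.64 over the 10 genes in the first comparison and 0.22 over all genes, and 0.40 against 0.32 in the second. Averaged over both comparisons, none of the 10 passed, where 0.342% of all genes did, and 6 had an unadjusted p under 0.05, against 13.7%. The p53 deficient and double deficient libraries also differed without overlap in the level of Y-linked genes, given below with Phf13. With that level as a covariate, 7 of all genes passed in the second comparison, instead of 129. In the average 6 passed, instead of 73.

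**Figure D1:**
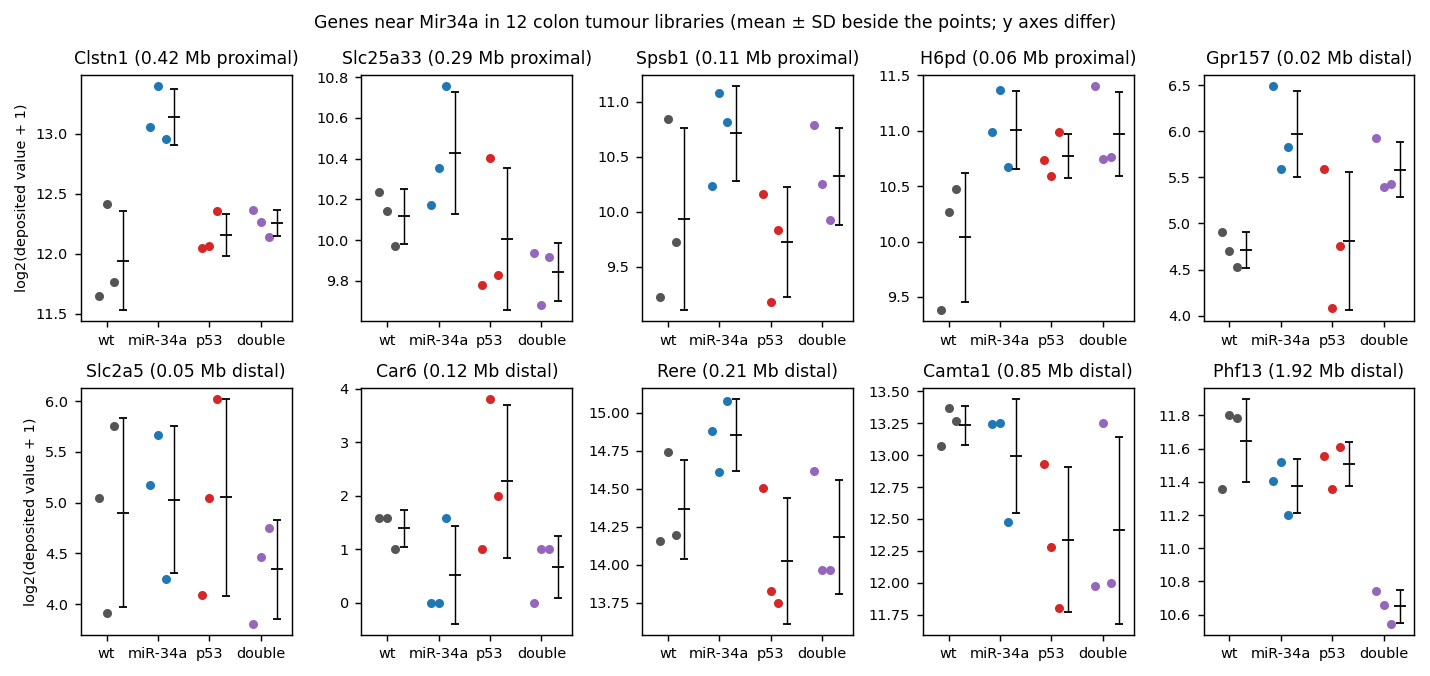
Level of each gene in the 12 libraries, in chromosomal order, on the scale of log2(value + 1), with 1 point per library and the mean ± SD of the 3 libraries of a genotype beside the points. Clstn1 is high in the 3 miR-34a deficient libraries and Phf13 is low in the 3 double deficient libraries, while Gpr157, Slc2a5 and Car6 are near the bottom of the range of values.

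Clstn1 encodes calsyntenin-1, a transmembrane protein of the cadherin superfamily that links cargo vesicles to kinesin. The gene (ENSMUSG00000039953; GRCm38 chr4:149586468-149648899, plus strand) ends 419.6 kb before Mir34a. Its values were 3199, 5455 and 3486 in wt tumours and 8537, 10815 and 7959 in miR-34a deficient tumours. They were 4229, 4277 and 5234 in p53 deficient and 5271, 4910 and 4518 in double deficient tumours. The 3 miR-34a deficient libraries thus lay above the other 9, and the other 3 genotypes overlapped. Against wt alone, 6.5% of all genes were separated upwards, and the share with 3 libraries above the other 9 was not counted.

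The Clstn1 difference between miR-34a deficient and wt tumours was 1.20 ± 0.20, or 2.29 times, and did not pass (adjusted p = 0.0994). It passed in 1 of 26 alternatives, without wt 2, the wt library with the highest Clstn1 value (1.43 ± 0.17, adjusted p = 0.0138). Between double deficient and p53 deficient tumours the difference was 0.10 ± 0.20, with a 95% interval from -0.33 to 0.54. Averaged over both comparisons, Clstn1 differed by 0.65 ± 0.14 and did not pass (adjusted p = 0.0823). The average passed in 1 of 26 alternatives, without wt 2 (adjusted p = 0.0220), and adjusted p reached 0.317 over the 26. The interaction, which is the second difference minus the first, was -1.10 ± 0.28 (unadjusted p = 0.00234, adjusted p = 0.402), so the 2 differences were not shown to differ. None of the 10 genes passed for the interaction, where 0.0234% of all genes did, and 2 had an unadjusted p under 0.05, against 7.89%. Between double deficient and miR-34a deficient tumours the Clstn1 difference was -0.88 ± 0.20 (adjusted p = 0.0662). It passed in 1 of 26 alternatives, without wt 2 (adjusted p = 0.0331), and adjusted p reached 0.273 over the 26. None of the 10 genes passed in that comparison, where 0.905% of all genes did, and 4 had an unadjusted p under 0.05, against 18%. That comparison shares its libraries with those above.

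The related calsyntenin gene Clstn3 on chromosome 6, from a list of paralogues on other chromosomes, was at 4, 6 and 2 in wt and 11, 18 and 22 in miR-34a deficient tumours. It was at 2, 9 and 6 in p53 deficient and 11, 14 and 16 in double deficient tumours. The groups thus did not overlap in either comparison, at low values, and 1.13% of all genes were separated upwards in both. Clstn3 was named after its values were seen. Its differences were 1.88 ± 0.51 and 1.29 ± 0.51, and neither passed (adjusted p = 0.560 and 0.260). Of 18 paralogues of the 10 genes, 17 were tested and none passed in either comparison. The unadjusted p was under 0.05 for 1 and 5 of them, against 6.09% and 15.1% of all genes, and their median differences were -0.01 and -0.20, against 0.03 and 0.05 over all genes.

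Gpr157, an orphan G protein-coupled receptor gene, is the nearest of the 10 on the distal side of Mir34a (ENSMUSG00000047875; chr4:150087365-150105927, plus strand), with a gap of 18.8 kb. Its values were low: 29, 25 and 22 in wt, 89, 47 and 56 in miR-34a deficient, 47, 16 and 26 in p53 deficient, and 60, 41 and 42 in double deficient tumours. Every miR-34a deficient library lay above every wt library, as for 6.5% of all genes. The double deficient and p53 deficient libraries overlapped through p53 deficient 1 alone.

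Gpr157 had a difference of 1.26 ± 0.41 (2.39 times) in miR-34a deficient against wt tumours and of 0.77 ± 0.41 (1.71 times) in double deficient against p53 deficient tumours, and the average of both was 1.02 ± 0.29 (adjusted p = 0.171). It passed in none of the 3 under any of 26 alternatives. The libraries miR-34a deficient 1 and p53 deficient 1, which held the highest value of their group, carry another run code in their names than the other 10. Without these 2 libraries the differences were 1.00 ± 0.37 and 1.16 ± 0.37 (adjusted p = 0.884 and 0.183). The second difference was 0.41 ± 0.40 without p53 deficient 2 and 0.11 ± 0.57 when adjusted for the level of Y-linked genes (adjusted p = 0.696 and 0.974). In order of mean value, Gpr157 was at 25.3 ± 3.5 (SD, n = 3) in wt, 29.7 ± 15.8 in p53 deficient, 47.7 ± 10.7 in double deficient and 64.0 ± 22.1 in miR-34a deficient tumours, and the libraries of each neighbouring pair in that order overlap.

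H6pd encodes the hexose-6-phosphate dehydrogenase of the endoplasmic reticulum, which makes NADPH there in the first steps of the pentose phosphate pathway. It lies 59.4 kb proximal to Mir34a (ENSMUSG00000028980; chr4:149979475-150009023, minus strand) and is the gene with the 3 seed matches shown above. Its values were 665, 1229 and 1422 in wt and 2034, 2651 and 1627 in miR-34a deficient tumours. They were 1705, 1544 and 2035 in p53 deficient and 2715, 1715 and 1739 in double deficient tumours. The 3 wt libraries were the lowest of all 12, and the other 3 genotypes overlapped. Between miR-34a deficient and wt tumours alone, 6.5% of all genes were separated upwards.

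The H6pd difference was 0.97 ± 0.29 (1.96 times) between miR-34a deficient and wt tumours (adjusted p = 0.702). It was 0.20 ± 0.29 between double deficient and p53 deficient tumours (adjusted p = 0.789). The interaction was -0.77 ± 0.42 (adjusted p = 0.689). Between p53 deficient and wt tumours, in which the Mir34a label does not differ, the H6pd difference was 0.73 ± 0.29 and did not pass (adjusted p = 0.273), although every p53 deficient library lay above every wt library, as for 6.91% of all genes. None of the 10 genes passed in that comparison, where 0.0234% of all genes did, and 2 had an unadjusted p under 0.05, against 15.3%. The pooled Mir34a deletion difference of H6pd was 0.58 ± 0.21 (adjusted p = 0.260).

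Camta1, the other gene with a seed match, encodes a calmodulin-binding transcription activator and lies 848.8 kb distal to Mir34a (ENSMUSG00000014592; chr4:150917322-151861876, minus strand). Its values were 8594, 10584 and 9853 in wt and 9721, 9771 and 5708 in miR-34a deficient tumours. They were 7808, 4976 and 3570 in p53 deficient and 4031, 9749 and 4096 in double deficient tumours. Groups overlapped in both Mir34a deletion comparisons, with differences of -0.24 ± 0.37 and 0.07 ± 0.37. All p53 deficient libraries lay below all wt libraries, with a difference of -0.90 ± 0.37 that did not pass (adjusted p = 0.280), and 9.27% of all genes were separated in that direction. The span of Camta1 holds Uts2, Per3 and Vamp3 and overlaps Tnfrsf9 in part, without shared exonic bases.

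Spsb1 encodes a SOCS box adaptor that brings substrates to a ubiquitin ligase, and lies 113.4 kb proximal to Mir34a (ENSMUSG00000039911; chr4:149896283-149955043, minus strand). Its values were 598, 1840 and 846 in wt, 1207, 2170 and 1807 in miR-34a deficient, 1141, 577 and 911 in p53 deficient, and 1774, 1216 and 969 in double deficient tumours. The groups overlapped in both comparisons, through wt 2 in the first. The differences were 0.78 ± 0.41 and 0.60 ± 0.41, and their average was 0.69 ± 0.29 (adjusted p = 0.321). Spsb1 shares 103 exonic bases, and Slc25a33 shares 281, with antisense transcripts that are not rows of the table, and reads of the 2 strands cannot be told apart, since nothing states whether counting used strand.

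Rere encodes an atrophin family transcriptional corepressor and lies 213.1 kb distal to Mir34a (ENSMUSG00000039852; chr4:150281646-150621966, plus strand). Its values were 18237, 27406 and 18799 in wt, 30135, 24955 and 34575 in miR-34a deficient, 23208, 14559 and 13752 in p53 deficient, and 25108, 15958 and 16025 in double deficient tumours. Rere overlapped between the groups of both comparisons, with differences of 0.49 ± 0.25 and 0.16 ± 0.25. Between double deficient and miR-34a deficient tumours the difference was -0.67 ± 0.25 (adjusted p = 0.192).

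Slc25a33 encodes a pyrimidine nucleotide carrier of the mitochondrial inner membrane and lies 294.2 kb proximal to Mir34a (ENSMUSG00000028982; chr4:149744036-149774277, minus strand). It ranged from 1001 to 1206 in wt, from 1152 to 1731 in miR-34a deficient, from 878 to 1355 in p53 deficient and from 819 to 978 in double deficient tumours. Its Mir34a deletion differences were 0.31 ± 0.21 and -0.16 ± 0.21. Every double deficient library lay below every miR-34a deficient library, as for 14.3% of all genes, with a difference of -0.58 ± 0.21 (adjusted p = 0.172).

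**Figure D2:**
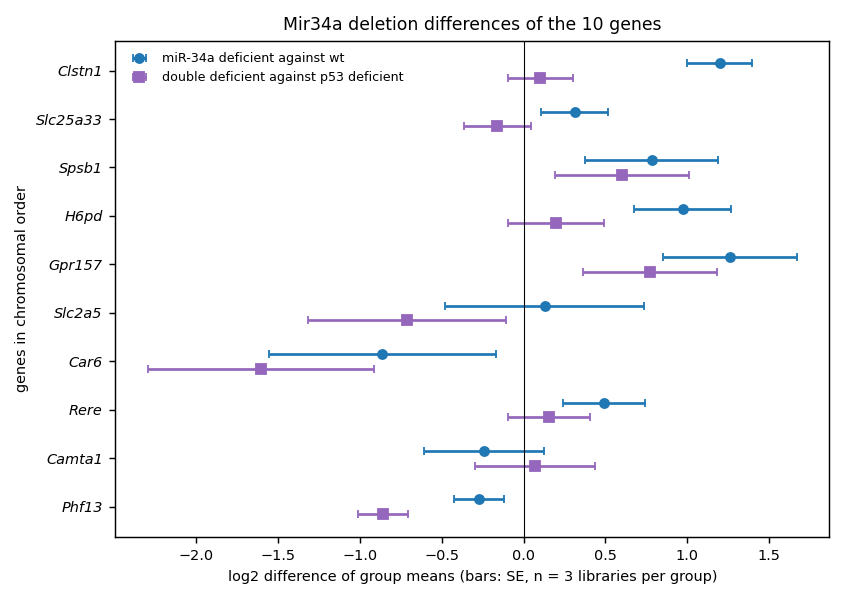
Log2 difference of each gene between miR-34a deficient and wt tumours (circles) and between double deficient and p53 deficient tumours (squares), with bars of 1 SE and 3 libraries per group. Gpr157 and Spsb1 lie above 0 in both, Clstn1 and H6pd lie near 1 in the first and near 0 in the second, and Phf13 lies lowest relative to its error in the second.

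Phf13, whose product is a PHD finger protein that binds trimethylated histone H3 lysine 4, was the gene of the 10 that passed in double deficient against p53 deficient tumours. It is the farthest of the 10, 1921 kb distal to Mir34a (ENSMUSG00000047777; chr4:151989633-151996258, minus strand). Its values were 2626, 3570 and 3523 in wt, 2709, 2932 and 2353 in miR-34a deficient, 3014, 2617 and 3119 in p53 deficient, and 1716, 1615 and 1495 in double deficient tumours. The 3 double deficient libraries lay below the other 9. Of all genes, 8.89% were separated downwards from p53 deficient and 14.3% from miR-34a deficient tumours. The share with 3 libraries below the other 9 was not counted.

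Phf13 fell by 0.86 ± 0.15 in double deficient against p53 deficient tumours (1.81 times, adjusted p = 0.0350). Between miR-34a deficient and wt tumours the difference was -0.27 ± 0.15, with overlapping groups. The interaction was -0.58 ± 0.22 (adjusted p = 0.554), so the 2 differences were not shown to differ. Against miR-34a deficient tumours the double deficient difference was -0.72 ± 0.15 (adjusted p = 0.0564), and the pooled Mir34a deletion difference was -0.56 ± 0.11 (adjusted p = 0.0575). These 2 differences passed in 4 and 3 of 26 alternatives, among them the fit without wt 1 (adjusted p = 0.0432 and 0.0402).

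The call of Phf13 between double deficient and p53 deficient tumours held in 12 of 26 alternatives, with differences between -0.93 and -0.76 and adjusted p between 0.0254 and 0.520 over all 26. It was lost without miR-34a deficient 1 (adjusted p = 0.0628), without p53 deficient 1, 2 or 3 (0.0528, 0.0595 and 0.0949) and without double deficient 1, 2 or 3 (0.0962, 0.0693 and 0.164). Averaged over 4 Y-linked genes, the log2 level was 3.73 to 6.98 in p53 deficient and 0.25 to 0.79 in double deficient libraries. It was 0 to 4.35 in wt and 0 to 5.28 in miR-34a deficient libraries. With that level as a covariate the Phf13 difference was -0.76 ± 0.24 (adjusted p = 0.520). The deposited values also lack a direction of variation within genotypes (the last of 8 singular values was 0.179 and the seventh 32.2), and with that direction as a covariate, on 1 degree of freedom fewer, the adjusted p was 0.0813. With it, 47 of all genes passed in this comparison, instead of 129. Between double deficient and miR-34a deficient tumours 57 passed, instead of 193, and in the average of the Mir34a deletion comparisons 31, instead of 73.

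Slc2a5 and Car6, like Gpr157, were close to the lower limit of the table. Slc2a5, the gene of the fructose transporter GLUT5, lies 50.7 kb distal to Mir34a (ENSMUSG00000028976; chr4:150119283-150144169, plus strand). It ranged from 14 to 53 in wt, 18 to 50 in miR-34a deficient, 16 to 64 in p53 deficient and 13 to 26 in double deficient tumours, with differences of 0.13 ± 0.61 and -0.71 ± 0.61. Car6, the gene of the secreted carbonic anhydrase VI, lies 118.5 kb distal (ENSMUSG00000028972; chr4:150187015-150201332, minus strand). It was at 0 to 2 in wt and miR-34a deficient, at 1, 13 and 3 in p53 deficient and at 0 or 1 in double deficient tumours. The fitted Car6 differences of -0.86 ± 0.69 and -1.60 ± 0.69 rest on such values, and the second includes p53 deficient 2, the library at 13.

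Per kilobase of annotated exons, the 10 genes spanned a wide range of mean levels in wt tumours. Rere had the highest normalized value, 2519 per kb, followed by Phf13 at 1011, Clstn1 at 868, Camta1 at 664 and Slc25a33 at 590. Spsb1 was at 249 and H6pd at 211. Slc2a5, Gpr157 and Car6 were at 9.70, 5.17 and 0.918 per kb.

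Some of the 10 genes varied together over the 12 libraries. Log2 values of Spsb1 correlated with those of Clstn1 (Pearson r = 0.74) and Rere (r = 0.73), and those of Gpr157 with Rere (r = 0.65). The correlation farthest from 0 was negative, between Gpr157 and Car6 (r = -0.78), and that of Spsb1 with Car6 was -0.62, both over Car6 values near 0. These are descriptions over 12 libraries that share genotype and library effects. Gpr157 and Car6, which had the largest pooled differences, were set against all genes by the same measure. The 5 genes most like Gpr157 were Rbm44 (r = 0.94), Gm13790 (0.93), Dip2b (0.92), Gm26782 (0.90) and Tpte (0.90), none of them on chromosome 4. Those most like Car6 were Sec23a (0.93), Rabggtb (0.92), Ddx47 (0.92), Aars (0.92) and Traf4 (0.89), a ranking that rests on Car6 values between 0 and 13.

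The wider region was read from the annotation, as every gene of the table within 2 Mb of Mir34a. It held 65 genes, the 10 included, of which 64 were tested. In miR-34a deficient against wt tumours 1 passed, the glycolytic enzyme gene Eno1, at 0.93 ± 0.13 (adjusted p = 0.0468). In double deficient against p53 deficient tumours 2 passed, Phf13 and Eno1, the second at 0.85 ± 0.13 (adjusted p = 0.0189). Of all genes, 0.0375% passed in the first of these comparisons and 0.605% in the second. Reads of Eno1 can be shared with its near-identical copy, so its values are uncertain. The 2 calls of Eno1 held in 2 and 18 of 26 alternatives, the first of them in none that left out a single library. Averaged over both comparisons, Eno1 was higher by 0.89 ± 0.09 (adjusted p = 0.00247), which held in 25 of 26 alternatives. It was the 1 gene of the region that passed there, where 0.342% of all genes did.

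Within 0.5 Mb of Mir34a, 14 genes were tested, 8 of them among the 10. The median size of their differences was 0.87 in miR-34a deficient against wt tumours, against 0.21 on other chromosomes, and 6 of 14 (42.9%) had groups that did not overlap, all 6 higher, where 6.5% of all genes were separated upwards. In double deficient against p53 deficient tumours the median was 0.59, against 0.31, and 4 of 14 (28.6%) did not overlap, against 19.6% on other chromosomes. From 0.5 to 1 Mb the medians were 0.24 and 0.44, and from 1 to 2 Mb they were 0.26 and 0.38. The nearest bin holds few genes, many of them at low values: over the 8 of them whose mean value reached 100 the medians were 0.64 and 0.30, against 0.15 and 0.24 on other chromosomes.

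The 10 genes alone showed 3 separated upwards in the first comparison (Clstn1, Gpr157 and H6pd), where 6.5% of all genes were. None was separated downwards, where 3.57% of all genes were. In the second they showed 1 separated downwards (Phf13), where 8.89% of all genes were, and none upwards, where 10.7% were. Without Eno1 and the 8 genes described, 5 genes remained within 0.5 Mb, with medians of 0.87 and 0.58. Of these 5, 2 had separated groups in the first comparison and 3 in the second, where none of the 8 did, so the 4 separated genes of that bin were Eno1 and 3 of these 5. On other chromosomes, 9.96% of genes in the first comparison and 19.6% in the second were separated in either direction.

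**Figure D3:**
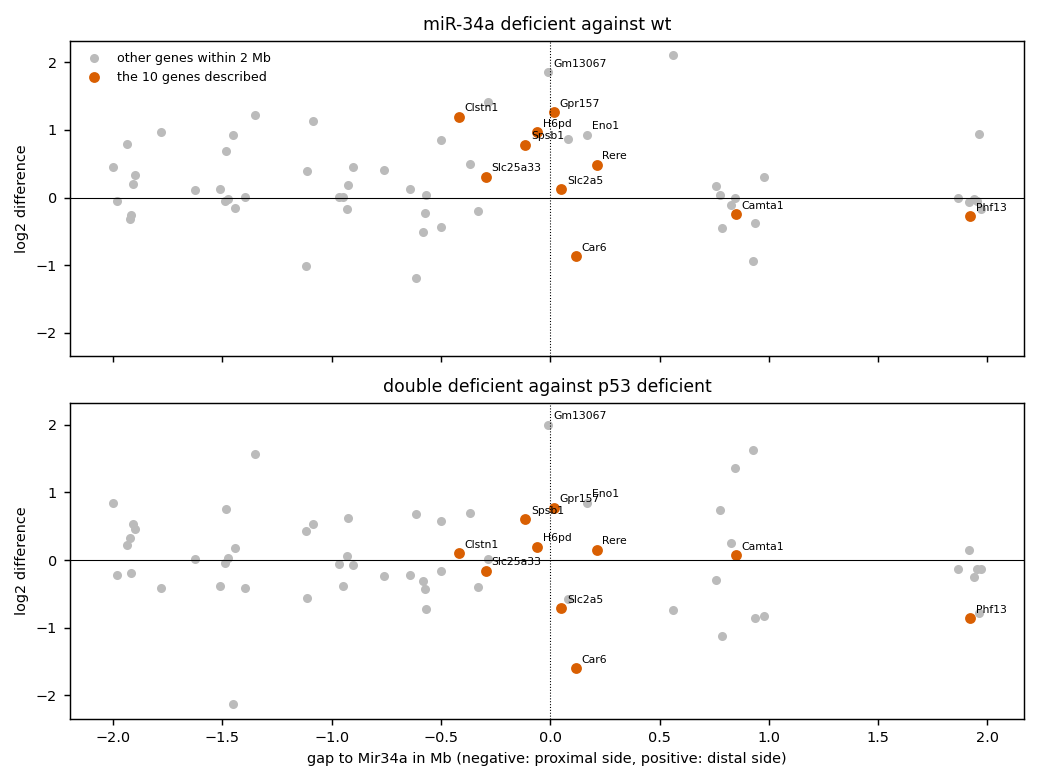
Log2 difference of each tested gene within 2 Mb of Mir34a against its gap to Mir34a in Mb, for miR-34a deficient against wt (top) and double deficient against p53 deficient tumours (bottom), with the 10 genes described in orange. In the top panel all points within 0.5 Mb except Car6 and Tmem201 lie above 0, while in the bottom panel Gm13067, Eno1 and Gpr157 lie above 0 there and Slc2a5 and Car6 below.

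Gm13067, a non-coding gene on the strand of Mir34a that ends 11.5 kb before it (ENSMUSG00000086665; chr4:150049013-150056976), was singled out after its values were seen. It was at 17, 11 and 9 in wt and at 47, 44 and 46 in miR-34a deficient tumours. It was at 3, 4 and 0 in p53 deficient and at 15, 9 and 7 in double deficient tumours. It was therefore higher in every library with the Mir34a deletion than in every library of the matching group without it, as 1.13% of all genes were in both comparisons. It also lay lower in every library with the p53 deletion than in the matching group. Singly, 9.27% of all genes were so separated between p53 deficient and wt and 14.3% between double deficient and miR-34a deficient tumours. The share with both was not counted. The Mir34a deletion differences were 1.85 ± 0.56 and 2 ± 0.56 (adjusted p = 0.702 and 0.139), and the p53 deficient difference from wt was -2.25 ± 0.56 (adjusted p = 0.124), so none passed.

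Markers of cell types moved with some of these groups. The summed value of 10 epithelial markers was 541800 to 795507 in wt and 471746 to 575265 in miR-34a deficient tumours, and 631082 to 844881 in p53 deficient and 553436 to 609673 in double deficient tumours, without overlap between the last 2. In the first Mir34a deletion comparison 10 of these 10 markers had a negative difference, and in the second 9 of 10, and none passed. The summed value of 10 endothelial markers was 1441 to 3190 in wt and 3220 to 3873 in miR-34a deficient tumours, and 2082 to 3015 in p53 deficient and 4777 to 6424 in double deficient tumours. All 10 markers had a positive difference in both Mir34a deletion comparisons, and none passed. In each comparison 8 of them had an unadjusted p under 0.05, against 6.09% of all genes in the first and 15.1% in the second. The sum of 10 smooth muscle markers was 3378 to 4272 in wt, 5043 to 6894 in miR-34a deficient, 3365 to 5281 in p53 deficient and 4110 to 6387 in double deficient tumours. For 7 enteric neuron and glia markers of 10 listed, the sum was 551 to 745, 823 to 1332, 207 to 1143 and 529 to 700 in the same order. The sum of 9 surface colonocyte markers was 49798 to 137790, 22287 to 67147, 20328 to 41963 and 5862 to 38767. In double deficient against p53 deficient tumours 1 of the 9 passed as lower, where 0.38% of all genes did. For 9 leukocyte markers of 10 listed it was 916 to 1793, 1357 to 2662, 719 to 2459 and 1572 to 2603. No endothelial, smooth muscle, enteric neuron and glia or surface colonocyte marker in the table was at 0 throughout a genotype. Of the 7 neuron and glia markers, 4 had a positive and 3 a negative difference between miR-34a deficient and wt tumours, whereas all 10 smooth muscle markers had a positive one. Clstn1 was high in miR-34a deficient tumours, without overlap with the other genotypes. The smooth muscle sum also peaked there and overlapped p53 deficient (up to 5281) and double deficient tumours (up to 6387). The neuron and glia sum peaked there too and overlapped p53 deficient tumours (up to 1143). The endothelial sum was higher without overlap in both Mir34a deletion comparisons, and was highest in double deficient tumours. Gpr157, Spsb1, Clstn1, H6pd and Rere had positive differences in both of these comparisons. Phf13 and Car6 had negative ones in both, and the signs differed for Slc25a33, Slc2a5 and Camta1. Phf13 was low in double deficient tumours, where the surface colonocyte sum reached its lowest value. That sum overlapped between double deficient and p53 deficient tumours. The epithelial sum of double deficient tumours lay below that of p53 deficient tumours, and its lowest value was in miR-34a deficient tumours (471746). The part of these cells in the values of the 10 genes was not tested.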

How the data were processed

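The authors deposited 1 table of score values, that is, whole-number expression values per gene symbol, read as normalized and rounded from the values themselves. The submitters' processing notes name the genome build mm10. For the aligner, the counting, the annotation and the scaling the entry is the same: not given in the sources used here. Upper quartiles of the 12 columns lay between 1905 and 1982.25 while column sums ran from 45310209 to 101121673, so count models were not used and depth is unknown. The highest sum was that of miR-34a deficient 1, a library of the other run code, and the next highest was 65060651, in wt 1.

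Values were taken as log2(value + 1), and 21322 genes with a mean of at least 1 were fitted with limma 3.58.1 in R 4.3.3. The fit had a trend in the prior variance, 1 mean per genotype and 8 residual degrees of freedom. These 8 make no allowance for the absent direction of variation described with Phf13. Comparisons were each single deletion against wt, the double against each single deletion, the mean of the 2 Mir34a deletion comparisons, and the interaction. The fit was tested on simulated data. Positions come from GENCODE M21 (GRCm38), which matched 97.4% of the table. Named were the 10, Trp53, Eno1, called genes within 2 Mb, called paralogues and the 5 genes most like the 2 with the largest pooled difference; Clstn3, Gm13067, Casz1, Masp2 and Vamp3 were named after their values were seen. The genes and lists were chosen with earlier results of these data known. Replicate numbers do not pair the libraries by the labels. The 26 alternatives changed pseudocount, filter, scaling, covariates, libraries and prior.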

Additional observations from a re-analysis of the deposited data

How the results depend on the processing

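The limits are 3 libraries per genotype, an unknown depth and single calls near the threshold. Of 34 results of the 10 genes, 6 changed sign under 1 or more of 26 alternatives, in 11 of 882 values, all of them differences that did not pass. In miR-34a deficient against wt tumours, Slc2a5 did so with quantile normalization (-0.11) and without wt 2 or miR-34a deficient 2, ranging from -0.37 to 0.55 without single libraries. Camta1 did so without miR-34a deficient 3, ranging from -0.37 to 0.0156. In double deficient against p53 deficient tumours, H6pd (from -0.0189 to 0.31) and Rere (from -0.0614 to 0.39) changed sign without double deficient 1. There Slc25a33 changed sign when adjusted for Y-linked level (0.00699) and without p53 deficient 2 (range -0.27 to 0.0409). Camta1 changed sign when so adjusted (-0.49) and without p53 deficient 3 or double deficient 2 (range -0.35 to 0.37).

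In miR-34a deficient against wt tumours the number of the 10 genes that passed was 0 under every alternative except without wt 2, where it was 1 (Clstn1), so that it ranged from 0 to 1 without single libraries. The region count was 1 and became 0 with a pseudocount of 10, no filter, a minimum mean of 10, each of the 3 rescalings, only the groups compared, a replicate block, the Y-linked level, the absent direction, no prior trend, or when both libraries with the other run code were left out; without single libraries it ranged from 0 to 1. In double deficient against p53 deficient tumours the count of the 10 genes was 1 and became 0 with only the groups compared, a replicate block, the run code, the Y-linked level, the absent direction, no prior trend, or with those libraries left out, and ranged from 0 to 1 without single libraries. The region count there was 2, with 1 under a replicate block or the run code as a covariate and 0 with only the groups compared, with those libraries left out, the Y-linked level, the absent direction or no prior trend, and it ranged from 0 to 3 without single libraries. Averaged over both comparisons the count of 0 became 1 with median-of-ratios or upper-quartile rescaling, and ranged from 0 to 1 without single libraries. In double deficient against miR-34a deficient tumours it became 1 with a pseudocount of 10, a minimum mean of 10 or quantile normalization, and ranged from 0 to 1 without single libraries. The cause was not tested. Replicate numbers share only a number: the deviations of 7 among 18 pairs with equal numbers had a correlation over 0.1, 6 of the 12 libraries lay closest to their own number, and under the replicate block Phf13 had an adjusted p of 0.0619.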

Other observations

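Of the 64 genes tested within 2 Mb of Mir34a, 2 passed in the comparison of double deficient with miR-34a deficient tumours, where 0.905% of all genes did. Both groups carry the Mir34a deletion, and neither gene is one of the 10. Casz1, a zinc finger transcription factor gene 1114 kb proximal to Mir34a, was at 7246, 8302 and 5391 in wt, 8601, 9175 and 9412 in miR-34a deficient, 7306, 6558 and 6008 in p53 deficient, and 4561, 4680 and 4143 in double deficient tumours. Casz1 fell by 1.02 ± 0.15 in that comparison (adjusted p = 0.0156 by limma) and passed in 23 of 26 alternatives, and was lost without miR-34a deficient 2, without double deficient 3 and without both libraries of the other run code. Its miR-34a deficient libraries all lay above wt and its double deficient libraries all below p53 deficient, with an interaction of -0.97 ± 0.22 that did not pass (adjusted p = 0.333). Taken singly, 6.5% and 8.89% of all genes were separated in these directions, and the share with both was not counted. Masp2, a gene of a complement protease, fell by 2.83 ± 0.46 there (adjusted p = 0.0211 by limma). The miR-34a deficient values were 15, 14 and 5, and those with both deletions were 0, 1 and 1. The call rests on values near the lower limit of the table, and it was lost in 8 alternatives: without miR-34a deficient 1 or 2, without double deficient 1 or 3, with only the groups compared, with the run code or the absent direction as a covariate, and without both libraries of the other run code.

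Vamp3, a vesicle fusion gene within the span of Camta1, was named after its values were seen, as was Casz1. Its groups were separated as those of Casz1, higher in miR-34a deficient than in wt and lower in double deficient than in p53 deficient tumours. How many of all genes show both separations was not counted. Its differences were 0.30 ± 0.24 and -0.83 ± 0.24, and the interaction of -1.13 ± 0.35 did not pass (adjusted p = 0.471).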
